A study of Mus musculus with 12 samples.

Results

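The liver makes most of the plasma proteins of the complement and blood clotting systems, and 37 genes of these secreted factors were followed here, out of 23909 named genes in the deposited expression table. The genes were taken by name from a list of secreted complement, coagulation and fibrinolysis proteins, with earlier results of these data known, and comprise 21 coagulation and fibrinolysis factors and 16 complement factors. All 37 were in the table and all 37 passed the filter on low values, at least 1 RPKM in at least 3 libraries, which 12058 genes passed. RPKM scales the reads of a gene to its length and to the sequencing depth of the library.

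Liver RNA of C57BL/6 mice from the vendors Jackson and Taconic was sequenced after 4 weeks of shared housing, in 4 groups of 3 libraries. Jackson mice housed among themselves formed the JAX group and Taconic mice housed among themselves the TAC group. CoJAX stands for Jackson mice that shared cages with Taconic mice, and CoTAC for Taconic mice that shared cages with Jackson mice. All 4 groups carried the C57BL/6 background without a transgene, drug or diet named in the labels, which do not give sex or age. Mice of different vendors carry different gut microbes and descend from separately bred colonies, so vendor stands for both, while housing together lets the microbes pass between cage mates.

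Blood clotting is a cascade in which liver-made zymogens activate each other until thrombin, the product of F2, cuts fibrinogen into fibrin. Factor XIII then cross-links the fibrin, inhibitors such as antithrombin and protein C hold the cascade back, and plasmin, made from Plg, dissolves the clot. Complement starts from antibody, from lectins that bind microbial sugars or by spontaneous turnover of C3, and each route cleaves C3 and then C5. The terminal proteins C5 to C9 assemble into a pore in the target membrane.

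The libraries were shallow and unequal in depth. Estimated reads, taken from the steps between the lowest values, were 1460000 to 1930000 for the JAX libraries and 1530000 to 3390000 for the TAC libraries, against 2100000 to 3630000 for CoJAX and 3070000 to 3560000 for CoTAC. The JAX libraries and TAC 1 were the shallowest, and the deepest 5 were TAC 3, CoJAX 3 and the 3 CoTAC libraries, so depth ran with the groups. Alb, the serum albumin gene and the reference level for the factors here, stood at 914, 1089 and 1152 RPKM in JAX, 1144, 912 and 549 in TAC, 884, 760.2 and 512 in CoJAX and 579, 519 and 602 in CoTAC livers. Its values were highest in the shallow libraries and lowest in the deep ones, and its coefficient of variation of 30.9% became 3.92% once each value was multiplied by the depth of its library. The 7 hepatocyte markers were all present, with summed levels of 3785 to 4710 RPKM for JAX and 2730 to 4817 for TAC livers, and of 2577 to 3956 for CoJAX and 2480 to 2937 for CoTAC livers. In bulk tissue, fewer cells of a type and less RNA per cell cannot be told apart.

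Many factors were among the abundant liver transcripts, but few came near the Alb level. Fgg and Fgb, the gamma and beta chain genes of fibrinogen, the precursor of fibrin, led the list. Their RPKM averaged 87.9% and 87.3% of that of Alb in the same library, with ranges of 71.3% to 99.6% and 68.4% to 99.3%. Alb RPKM fell with depth, so means over these libraries of unequal depth are not levels at a common depth. Only these 2 of 37 factors had a mean above 80% of Alb, against 73 of the 12058 tested genes (0.605%). F2, which encodes prothrombin, followed at 70.7% (53.1% to 81.9%), so 3 factors had a mean above 70% and 0 had one above 90%. A mean above 50% of Alb was found for 12 of the 37 factors and for 2.36% of all tested genes, and a mean above 25% for 26 factors and for 6.56% of all tested genes. At the low end stood Masp1, a protease gene of the lectin pathway, with a mean of 4.7% of Alb (0.4% to 10.1%), and Pros1, the gene of the anticoagulant cofactor protein S, with 6.3%.

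The distance of the factors from Alb differed between the libraries. The median factor stood at 27.05% to 30.33% of Alb in the JAX libraries and at 51.82% to 52.95% in the CoTAC libraries. In the TAC libraries the median was 31.48%, 39.34% and 50.1%, and in the CoJAX libraries it was 36.6%, 42.6% and 53.49%. These values followed depth within the TAC and the CoJAX groups, so a percentage of Alb is tied to the depth of its library. How the authors treated duplicate reads is not given in the sources used here, and its part in these percentages was not tested. No factor passed 80% of Alb in a JAX library, 2 did in TAC 1, TAC 2, CoJAX 1 and CoJAX 2, and 3 did in each of the 5 deepest libraries, the third being F2 or C3. C3, the central component of complement, stood at 34.8%, 30.3% and 28.2% of Alb in JAX and 84.1%, 73.9% and 83.3% in CoTAC livers. The 37 factors together held 1.595% to 1.696% of all RPKM in JAX livers and 1.743% to 1.962% in TAC livers. In CoJAX livers their share was 1.656% to 1.793%, and in CoTAC livers 1.784% to 1.916%.

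**Figure D1:**
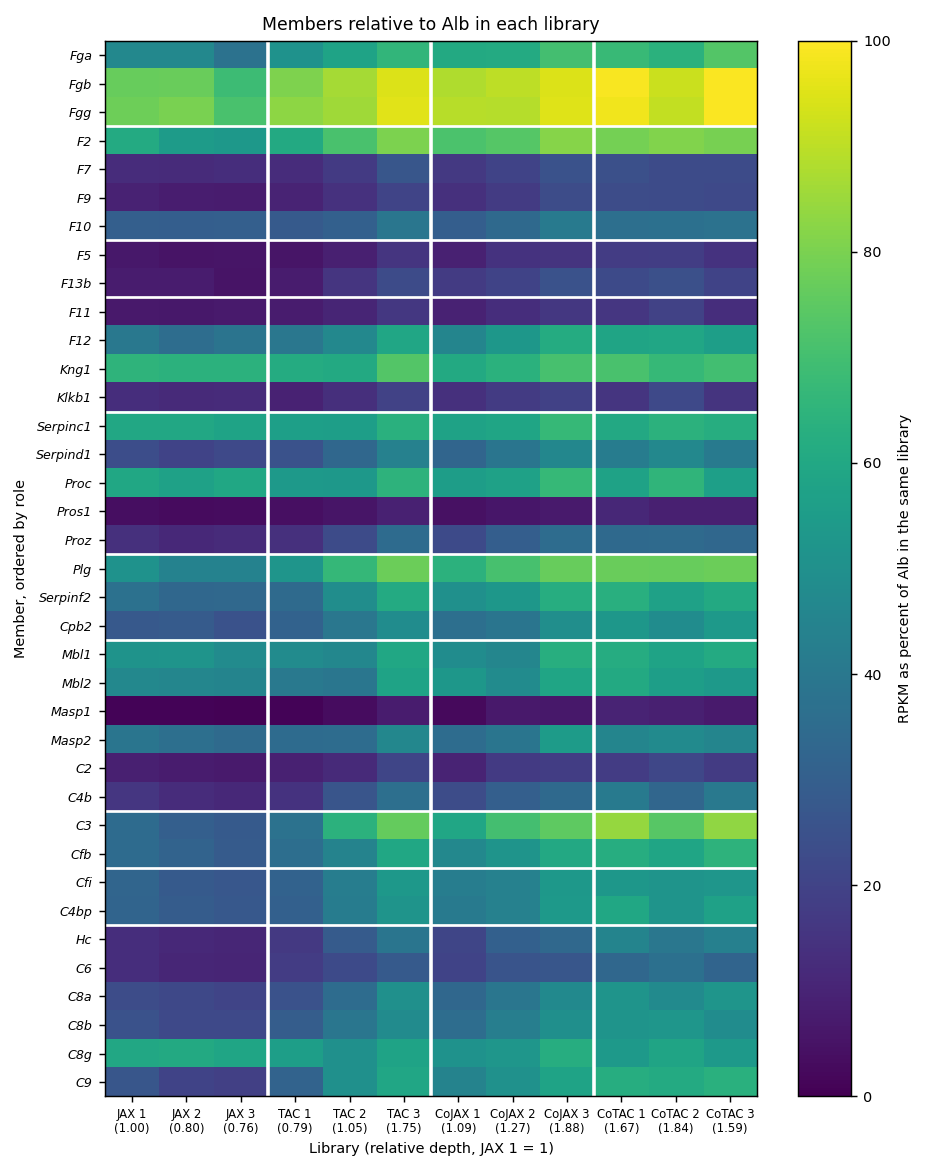
RPKM of the 37 factors as a percentage of Alb in the same library, with factors in rows by role, libraries in columns by group, and relative depth under each library (JAX 1 = 1). Fgb and Fgg are the rows nearest to Alb, and the median factor moves from 27.05% to 30.33% in the JAX columns to 51.82% to 52.95% in the CoTAC columns.

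Between the vendors kept apart, 5 factors were higher in TAC than in JAX livers and 0 were lower, at an adjusted p under 0.05 in limma-trend over all tested genes. These were the complement genes Hc, C9 and C6 of the terminal pathway and the coagulation genes F9 and F13b. Of all tested genes, 2.38% were called higher and 1.71% lower, 4.09% in all. The median difference of the 37 factors was 0.18 on the log2(RPKM + 0.5) scale, on which all differences are given, against -0.01 for all tested genes, and 24 of the 37 were above 0. An unadjusted p under 0.05 was found for 15 factors. For 14 factors every TAC library lay above every JAX library, and for 0 the reverse held, against 14.4% and 11.8% of all tested genes. The 5 calls rested on the pooled spread of the 4 groups, since 0 factors passed (15 at an unadjusted p under 0.05) when the 6 JAX and TAC libraries were fitted alone, a fit that called 0.108% of all tested genes. The call count was also 0 without JAX 1 (0.348% of all tested genes called), JAX 2 (0.655%), JAX 3 (0.224%) or TAC 2 (0.0912%). It was 1 without TAC 3 (0.340%) and 3 without CoJAX 1 (2.19%) or CoTAC 3 (2.11%). It was 13 without TAC 1, 2 of them lower (C8g and Masp2), where 17.5% of all tested genes were called. It was 22 after quantile normalization, where 6.72% of all tested genes were called and the median difference of the factors was 0.36.

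Between Jackson mice housed with Taconic mice and those kept apart, 10 factors were higher in CoJAX livers and 1 was lower. The complement genes C3, C4b, Masp1, Hc, C6 and C9 and the coagulation genes F5, F9, F13b and Proz were higher, and C8g was lower. The background was larger here, with 12.7% of tested genes called higher and 11.5% called lower, 24.1% in all. The median difference of the factors was 0.09, against -0.01 for all tested genes, 23 of 37 were above 0, and 20 had an unadjusted p under 0.05. In 14 factors the CoJAX libraries all lay above the JAX libraries and in 7 all lay below, against 21.8% and 21.9% of all tested genes. The median moved to -0.01 without CoJAX 1, 0.03 without JAX 1, 0.36 after quantile normalization and 0.34 with relative depth as a covariate. With that covariate 2 factors passed, C6 and C8b, and the calls over all tested genes went from 2911 to 39 (0.323%). Among the factors that no longer passed, the differences with the covariate stood at 0.84 ± 0.15 (adjusted p = 0.0522) for C9, 0.76 ± 0.18 (adjusted p = 0.065) for C3 and 0.72 ± 0.19 (adjusted p = 0.0772) for Hc. They stood at 0.55 ± 0.11 (adjusted p = 0.0522) for F9, 0.91 ± 0.21 (adjusted p = 0.0629) for F13b and 1.36 ± 0.44 (adjusted p = 0.111) for Masp1. Without the covariate these differences were 0.65 for C9, 0.55 for C3, 0.67 for Hc, 0.51 for F9, 1.01 for F13b and 2.15 for Masp1. F5, Proz, C4b and C8g did not pass with the covariate either. After quantile normalization 25 factors passed (3015 of all tested genes), as did 25 with Alb as the scale (12.7%), which moved the median of all tested genes to 0.52. The call count was 6 without JAX 2 (13.9% of all tested genes) or JAX 3 (11.9%) and 4 without CoJAX 2 (10.5%). This comparison and the vendor comparison share the JAX libraries, so their values are given side by side and do not count as separate evidence.

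**Figure D2:**
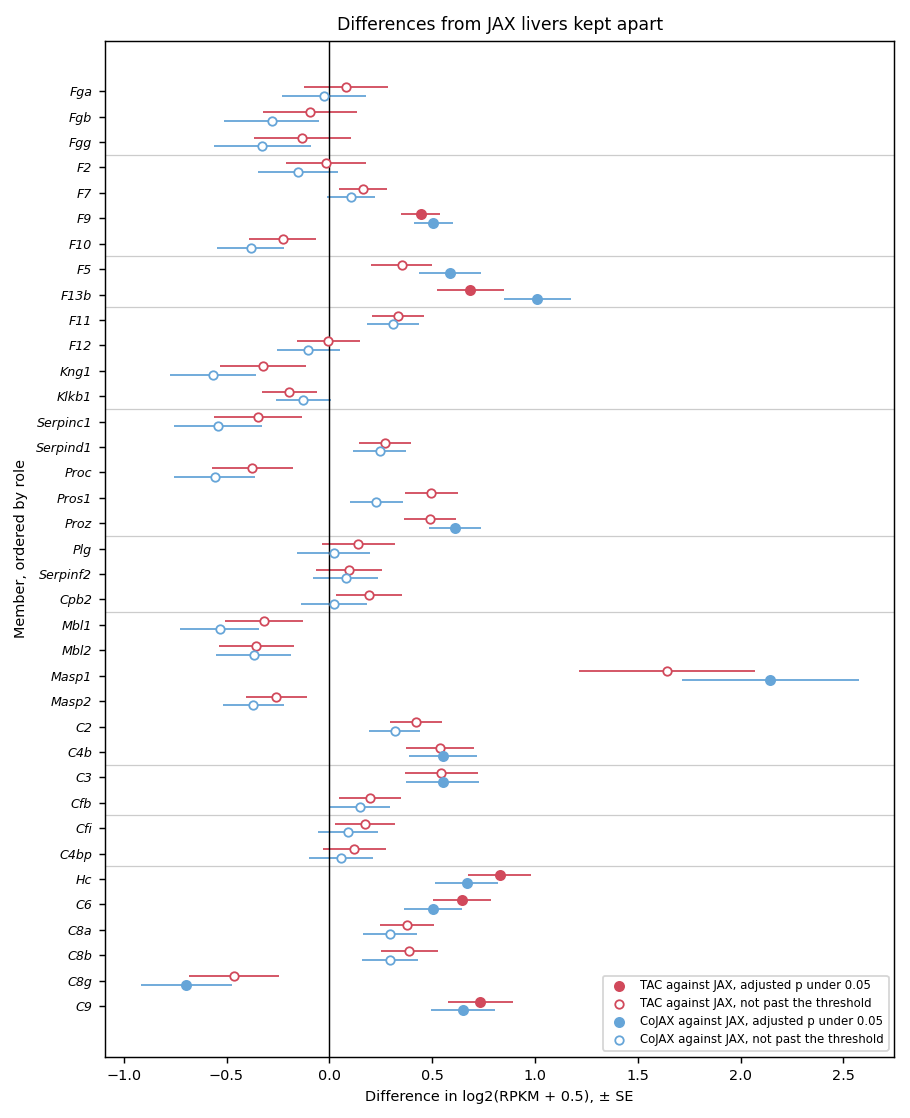
Differences of the 37 factors from JAX livers in log2(RPKM + 0.5), with bars for 1 standard error, for TAC livers (red) and CoJAX livers (blue), with filled points past the adjusted threshold. The 5 filled red points and the 10 filled blue points on the right, and C8g as the filled blue point on the left, are the calls.

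The fibrinogen chain genes Fga, Fgb and Fgg did not pass in any comparison on RPKM as deposited. Their differences ran from -0.13 to 0.08 between TAC and JAX and from -0.33 to -0.02 between CoJAX and JAX livers. Sign and call depended on the scale: after quantile normalization Fga stood at 0.36 ± 0.08 (adjusted p = 0.0123), Fgb at 0.28 ± 0.06 (adjusted p = 0.00923) and Fgg at 0.23 ± 0.06 (adjusted p = 0.0162) between CoJAX and JAX, and all 3 were called higher between TAC and JAX as well. The levels of Fgb ranged over the libraries from 478 to 925 RPKM, those of Fgg from 472 to 949 and those of Fga from 330.5 to 583. Fgg, Fga and Fgb are neighbours on chromosome 3.

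Among the vitamin K-dependent procoagulant genes F2, F7, F9 and F10, F9 was called on RPKM as deposited. F9 encodes the protease factor IX, the factor missing in hemophilia B, and lies on chromosome X. It stood at 86.4, 87.6 and 86.7 RPKM in JAX, 113, 129.6 and 113 in TAC, 122, 132 and 118 in CoJAX and 133, 118 and 133 in CoTAC livers. All 9 other libraries lay above the 3 JAX libraries, which had a mean of 86.9 ± 0.625 RPKM (SD, n = 3). F9 rose by 0.44 ± 0.10 (adjusted p = 0.0323) in TAC and by 0.51 ± 0.10 (adjusted p = 0.00685) in CoJAX against JAX livers. With Alb as the scale F9 stood at 0.78 ± 0.26 (adjusted p = 0.246) in TAC livers and was not called. F2, F7, the starter protease of the tissue factor route, and F10, the protease that cuts prothrombin, did not pass in either comparison on RPKM as deposited. F2 ranged from 419 to 693 RPKM, F7 from 117 to 155 and F10 from 191 to 349, and their differences between TAC and JAX were -0.01 ± 0.19, 0.16 ± 0.12 and -0.23 ± 0.16. F2 was called higher after quantile normalization, at 0.30 ± 0.06 (adjusted p = 0.0264) in TAC and 0.33 ± 0.06 (adjusted p = 0.00599) in CoJAX livers. With Alb as the scale F2 was called higher in CoJAX livers as well.

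The cofactor and cross-linking genes F5 and F13b were both higher in CoJAX than in JAX livers. F13b encodes the carrier subunit of factor XIII, which cross-links fibrin. It stood at 71.0, 81.4 and 62.8 RPKM in JAX, 87.0, 139 and 125 in TAC, 154, 152 and 128 in CoJAX and 131, 128 and 122 in CoTAC livers. The JAX values were the lowest 3 of the 12 libraries, with TAC 1 next above them. F13b rose by 0.68 ± 0.16 (adjusted p = 0.0412) in TAC and by 1.01 ± 0.16 (adjusted p = 0.00506) in CoJAX livers, and with Alb as the scale its TAC difference was not called (adjusted p = 0.184). F5 encodes factor V, the cofactor of the protease that makes thrombin. It stood at 58.6, 55.9 and 63.5 RPKM in JAX, 62.8, 81.6 and 84.8 in TAC, 82.6, 111 and 77.9 in CoJAX and 104, 94.8 and 87.7 in CoTAC livers. TAC 1 fell within the JAX range and every CoJAX and CoTAC library lay above it, and F5 rose by 0.59 ± 0.15 (adjusted p = 0.0179) in CoJAX livers while its difference in TAC livers was 0.35 ± 0.15 (adjusted p = 0.164).

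None of the contact pathway genes F11, F12, Kng1 and Klkb1, which encode the proteases and the kininogen that start clotting on foreign surfaces, passed in any comparison on RPKM as deposited. F11 ranged from 63.9 to 102 RPKM and F12 from 307 to 452. Kng1, the kininogen gene, was listed at 595, 700.1 and 738 RPKM in JAX, 702, 554 and 403 in TAC, 537, 486 and 363 in CoJAX and 414, 347 and 420.0 in CoTAC livers. The lowest values of Kng1 were those of the deepest libraries. Its difference between CoJAX and JAX was -0.57 ± 0.21 (adjusted p = 0.0687). With Alb as the scale it was 0.01 ± 0.11 (adjusted p = 0.945), where the median of all tested genes was 0.52. Kng1 was called lower in CoJAX livers with the trend over length and level removed, an alternative chosen after seeing the data. That fit called 10.5% of all tested genes lower. F12 was called higher after quantile normalization in both comparisons with JAX. Kng1 may share reads with the near-identical Kng2 and is uncertain. F11 and Klkb1, the plasma kallikrein gene, are neighbours on chromosome 8.

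Of the 5 anticoagulant genes, Proz was called. It encodes protein Z, the cofactor of an inhibitor of factor Xa. Proz stood at 127, 127 and 142 RPKM in JAX, 159, 209 and 192 in TAC, 199, 227 and 181 in CoJAX and 197, 180.0 and 201 in CoTAC livers. All other libraries lay above the JAX values, and Proz rose by 0.61 ± 0.13 (adjusted p = 0.00875) in CoJAX livers and had a difference of 0.49 ± 0.13 (adjusted p = 0.0511) in TAC livers. Pros1 stood at 34.2, 33.2 and 37.5 RPKM in JAX, 46.3, 51.9 and 50.5 in TAC, 41.0, 45.7 and 36.9 in CoJAX and 64.7, 46.5 and 54.0 in CoTAC livers. The TAC libraries lay above the JAX libraries and CoJAX 3 lay within the JAX range, with a difference of 0.50 ± 0.13 (adjusted p = 0.0507) in TAC and 0.23 ± 0.13 (adjusted p = 0.205) in CoJAX livers. Proc, which encodes protein C, the protease that inactivates factors V and VIII, stood at 545, 624 and 686 RPKM in JAX, 617, 487 and 356 in TAC, 491, 436 and 343 in CoJAX and 333, 340.0 and 340.3 in CoTAC livers. Every CoJAX library lay below every JAX library, but the difference of -0.56 ± 0.20 (adjusted p = 0.0588) did not pass. It was 0.02 ± 0.12 (adjusted p = 0.908) with Alb as the scale, where the median of all tested genes was 0.52. Serpinc1, the antithrombin gene, likewise had every CoJAX value below every JAX value, with 333 to 666 RPKM over the libraries and a difference of -0.54 ± 0.21 (adjusted p = 0.0841) in CoJAX livers, or 0.04 ± 0.11 (adjusted p = 0.818) with Alb as the scale. Serpind1, the heparin cofactor II gene, ranged from 217 to 306 RPKM and did not pass on RPKM as deposited. With the trend over length and level removed, Proc and Serpinc1 were called lower in CoJAX livers and Proz and Serpind1 higher. That fit called 10.5% of all tested genes lower and 10.2% higher.

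The fibrinolysis genes did not pass in any comparison on RPKM as deposited. Plg, the plasminogen gene, ranged from 392 to 608 RPKM, Serpinf2, the gene of the plasmin inhibitor alpha-2-antiplasmin, from 296 to 446 and Cpb2, which encodes a carboxypeptidase that slows clot lysis, from 252 to 360.2. Their differences between TAC and JAX ran from 0.10 to 0.19. After quantile normalization Plg and Cpb2 were called higher between TAC and JAX, Plg at 0.42 ± 0.08 (adjusted p = 0.0205). All 3 were called higher between CoJAX and JAX after quantile normalization and with Alb as the scale.

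The terminal complement genes held 3 of the 5 calls between TAC and JAX livers. Hc, which encodes C5, stood at 121, 126 and 122 RPKM in JAX, 189, 260.4 and 212 in TAC, 185, 234 and 172 in CoJAX and 261, 205 and 263 in CoTAC livers. The 3 JAX values were close together and lay below all 9 other libraries. Hc rose by 0.83 ± 0.15 (adjusted p = 0.0267) in TAC and by 0.67 ± 0.15 (adjusted p = 0.0125) in CoJAX livers, from 123 ± 2.42 to 221 ± 36.4 and 197 ± 32.4 RPKM (mean ± SD, n = 3). C9, whose product forms the ring of the pore, stood at 245, 217 and 219 RPKM in JAX, 363, 457 and 325 in TAC, 395, 386 and 297 in CoJAX and 359.5, 317 and 382 in CoTAC livers. No JAX library reached the lowest library of another group. C9 rose by 0.73 ± 0.16 (adjusted p = 0.0322) in TAC and by 0.65 ± 0.16 (adjusted p = 0.0144) in CoJAX livers. C6, which encodes a component that joins C5b at the start of pore assembly, stood at 120.2, 115 and 121 RPKM in JAX, 202, 204 and 156 in TAC, 178, 198 and 136 in CoJAX and 192, 191 and 193 in CoTAC livers. Its JAX values were again the lowest 3 of 12, and its CoTAC values were the closest together, at 192 ± 0.981 RPKM (mean ± SD, n = 3). C6 rose by 0.65 ± 0.14 (adjusted p = 0.0352) in TAC and by 0.50 ± 0.14 (adjusted p = 0.026) in CoJAX livers.

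The genes of the C8 subunits had differences of opposite sign. C8a and C8b, which are neighbours on chromosome 4 and encode the subunits that join the growing pore, had differences of 0.38 ± 0.13 (adjusted p = 0.101) and 0.39 ± 0.14 (adjusted p = 0.107) in TAC livers, with all TAC values above all JAX values. C8a stood at 211, 235 and 235 RPKM in JAX and 289, 323 and 275 in TAC livers, and C8b at 229, 242 and 255 and 335, 358 and 265. C8g encodes the gamma subunit, a small lipocalin, and lies on chromosome 2. It stood at 549, 662 and 676 RPKM in JAX, 640.3, 459 and 318 in TAC, 451, 400.3 and 319 in CoJAX and 310.4, 304 and 326 in CoTAC livers. The values of C8g were highest in the JAX libraries and TAC 1 and lowest in the deepest libraries, the order of Alb. C8g fell by 0.70 in CoJAX livers (SE 0.22, adjusted p = 0.04). This call was lost with Alb as the scale, at -0.12 ± 0.12 (adjusted p = 0.484), and with depth as a covariate, at -0.15 ± 0.07 (adjusted p = 0.218).

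C3 and the lectin and classical pathway genes gave 3 of the 10 higher calls in CoJAX livers. C3 stood at 318, 330.3 and 325 RPKM in JAX, 431, 587 and 419 in TAC, 523, 534 and 385 in CoJAX and 487, 384 and 502 in CoTAC livers. The JAX values were close together and below all others. C3 rose by 0.55 ± 0.18 (adjusted p = 0.0408) in CoJAX livers, and its difference in TAC livers was 0.55 ± 0.18 (adjusted p = 0.0864). C4b, the gene of the classical and lectin pathway component C4, stood at 144, 138 and 133 RPKM in JAX, 167, 242 and 201 in TAC, 206, 229 and 176 in CoJAX and 235, 172 and 242 in CoTAC livers. Its JAX values were the lowest 3 of 12, and it rose by 0.55 ± 0.17 (adjusted p = 0.033) in CoJAX livers against a difference of 0.54 ± 0.17 (adjusted p = 0.0777) in TAC livers. C4b may share reads with the near-identical C4a, which the table lists separately, and is uncertain. Masp1 stood at 8.70, 9.08 and 5.02 RPKM in JAX, 10.7, 30.8 and 41.5 in TAC, 23.0, 52.0 and 33.7 in CoJAX and 58.2, 45.8 and 43.2 in CoTAC livers. Its values had the largest coefficient of variation of the 37 factors, with TAC 1 close to the JAX libraries and the other TAC libraries well above them. Masp1 rose by 2.15 ± 0.43 (adjusted p = 0.00783) in CoJAX livers and had a difference of 1.64 ± 0.43 (adjusted p = 0.0536) in TAC livers.

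The other genes of these routes did not pass on RPKM as deposited. C2, which encodes the protease of the classical and lectin C3 convertase, had a difference of 0.42 ± 0.13 (adjusted p = 0.0726) in TAC livers, with 78.9, 83.9 and 84.4 RPKM in JAX and 107, 109 and 116 in TAC livers. Cfb, which encodes the matching protease of the alternative pathway and lies next to C2 on chromosome 17, ranged from 306 to 414 RPKM. The lectin genes Mbl1 and Mbl2, whose products bind sugars on microbes, ranged from 302 to 563 and 291 to 518 RPKM, and Masp2, the gene of the protease that cuts C4 and C2, from 249 to 401. Their differences between CoJAX and JAX were -0.53 ± 0.19, -0.37 ± 0.18 and -0.37 ± 0.15. With Alb as the scale they stood at 0.04, 0.21 and 0.21, where the median of all tested genes was 0.52. The regulator genes Cfi, which encodes the protease that destroys C3b and C4b, and C4bp, which encodes its cofactor for C4b, ranged from 269 to 388 and 269 to 384 RPKM. Cfb, Cfi and C4bp were called higher in CoJAX livers after quantile normalization and with Alb as the scale.

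**Figure D3:**
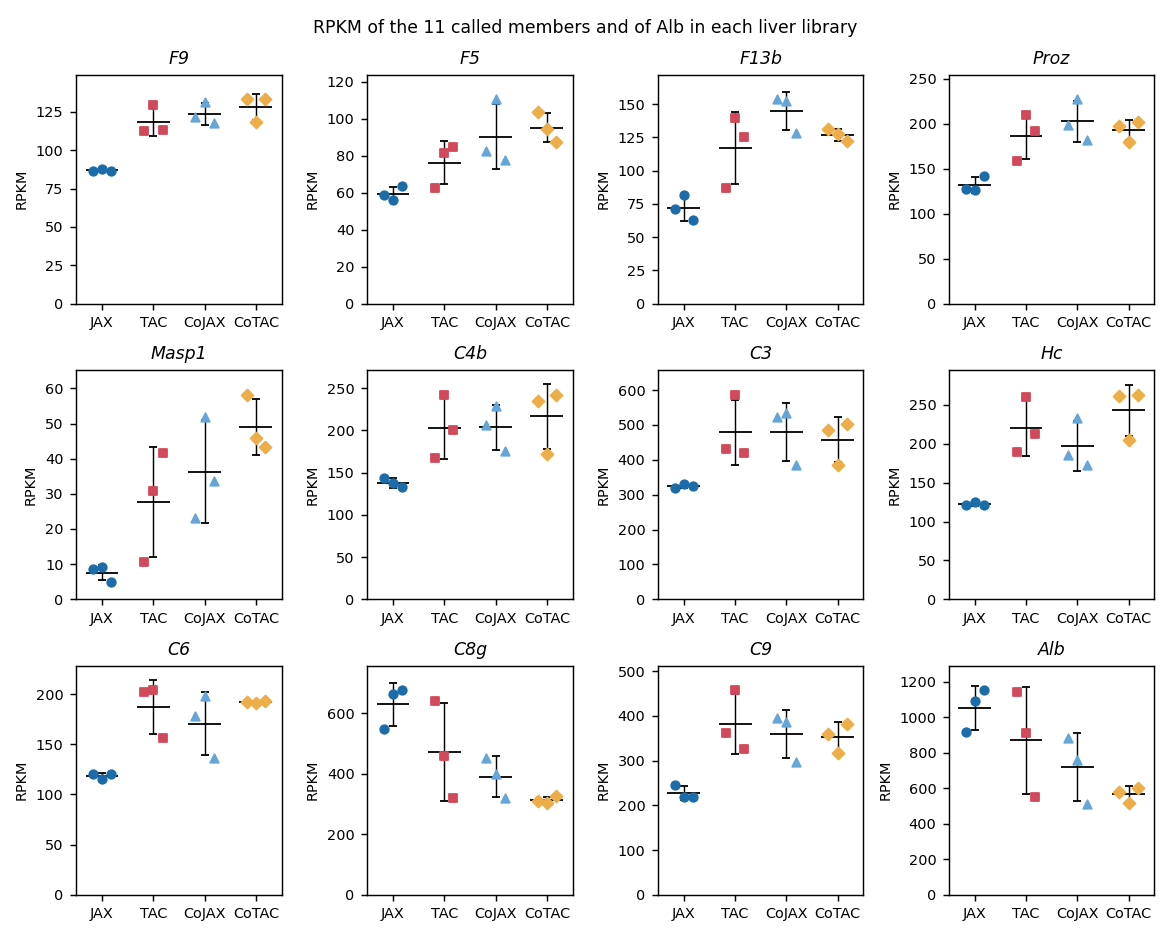
RPKM of the 11 factors called in at least 1 comparison and of Alb in each of the 12 libraries, with the group mean and SD as lines (n = 3). The JAX points are lowest for the 10 factors called higher, but for TAC 1 in F5, and highest, with TAC 1, for C8g and Alb.

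The sequences just before the start of the 5 genes that passed in both comparisons with JAX livers are shown because these genes carry the main calls. They are 120 bases each from RefSeq (GRCm38.p6), 5′ to 3′ on the strand of the gene, and end before the first annotated exon base. Capitals mark matches to GTTAATNA, a core element bound by HNF1, a transcription factor of liver cells, or to TTGCNNAA, the core bound by C/EBP factors, searched on both strands. The windows lie at chrX:59999344-59999463 on the plus strand for F9, chr1:139501582-139501701 on the plus strand for F13b, chr2:35061439-35061558 on the minus strand for Hc, chr15:4727055-4727174 on the plus strand for C6 and chr15:6445207-6445326 on the plus strand for C9.
F9: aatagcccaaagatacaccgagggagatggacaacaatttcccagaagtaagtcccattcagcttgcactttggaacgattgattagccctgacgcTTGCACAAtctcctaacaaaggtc
F13b: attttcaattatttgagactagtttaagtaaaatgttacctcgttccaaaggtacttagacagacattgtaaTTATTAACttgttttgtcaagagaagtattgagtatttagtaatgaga
Hc: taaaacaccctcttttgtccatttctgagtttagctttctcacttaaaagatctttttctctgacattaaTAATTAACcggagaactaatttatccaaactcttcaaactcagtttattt
C6: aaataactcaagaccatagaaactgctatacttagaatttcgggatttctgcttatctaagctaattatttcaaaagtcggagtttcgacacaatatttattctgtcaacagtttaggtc
C9: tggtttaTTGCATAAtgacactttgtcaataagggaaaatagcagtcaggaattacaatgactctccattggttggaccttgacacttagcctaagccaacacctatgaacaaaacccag
F9 and C9 held a C/EBP-type match, F13b and Hc an HNF1-type match, and C6 neither within these windows. In the 250 bases before the start, GTTAATNA was found for 5 of the 29 factors with a promoter entry (17.24%) and for 2.394% of 27025 genes. TTGCNNAA was found for 7 of the 29 (24.14%) and for 9.554% of all. A match describes the letters and does not show binding, and factors that were not called held them too, such as Fga, which held both.

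Between CoTAC and TAC livers, the Taconic mice with and without Jackson cage mates, 0 factors passed in limma-trend (7 at an unadjusted p under 0.05), while 0.647% of all tested genes did, 0.373% higher and 0.274% lower. The median difference of the factors was -0.16, against -0.003 for all tested genes, but this sign depended on the scale. It was 0.15 after quantile normalization and 0.39 with Alb as the scale, where the median of all tested genes was 0.51. The 3 smallest p-values belonged to Proc at -0.49 ± 0.20 (adjusted p = 0.168), C8g at -0.54 ± 0.22 (adjusted p = 0.174) and Masp1 at 1.003 ± 0.43 (adjusted p = 0.182), and the signs of Proc and C8g turned with Alb as the scale. All CoTAC values of Masp1 lay above all TAC values, and those of Proc lay below the TAC values. For C8g, CoTAC 3 lay above TAC 3. Without TAC 3 there were 7 calls, all lower, for C8g, F10, F2, Kng1, Masp2, Proc and Serpinc1, in a fit that called 7.66% of all tested genes lower. For 2 factors all CoTAC libraries lay above all TAC libraries and for 2 below, against 14.2% and 12.2% of all tested genes.

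Between the vendors as cage mates, CoTAC against CoJAX, 0 factors passed in limma-trend and 1 had an unadjusted p under 0.05, while 0.0663% of all tested genes passed, 0.0249% higher and 0.0415% lower. The median difference of the factors was -0.10, against 0.01 for all tested genes. It turned to 0.13 after quantile normalization, 0.21 with Alb as the scale and 0.01 with depth as a covariate. The median of all tested genes was 0.03, 0.30 and 0.001 in these fits, so on the Alb scale the factors stayed below it. Pros1 had the smallest p, at 0.41 ± 0.13 (adjusted p = 0.33), followed by Klkb1 at -0.27 ± 0.13 (adjusted p = 0.487) and Hc at 0.30 ± 0.15 (adjusted p = 0.494). Klkb1 stood at 118, 128 and 139.9 RPKM in JAX, 108, 121 and 107 in TAC, 122, 133 and 99.8 in CoJAX and 88.6, 114 and 91.3 in CoTAC livers. The CoTAC and CoJAX values of Klkb1 overlapped, and the sign of its difference turned with Alb as the scale. For 1 factor all CoTAC libraries lay above all CoJAX libraries and for 2 below, against 9.07% and 9.94% of all tested genes. The difference between the vendor comparison apart and as cage mates was tested as an interaction, in which 0 factors (9 at an unadjusted p under 0.05) and 0 of all tested genes (0.00%, with 1358 at an unadjusted p under 0.05) passed. The smallest p-values were those of F13b at -0.87 ± 0.23 (adjusted p = 0.265), C9 at -0.75 ± 0.22 (adjusted p = 0.284) and Proz at -0.56 ± 0.18 (adjusted p = 0.298). The vendor difference was therefore not shown to change with housing for any factor.

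The differences ran with transcript length, taken as that of the longest annotated transcript of each gene, and with level. Over the 37 factors the difference between TAC and JAX correlated with log2 transcript length at r = 0.47 (0.27 over 11975 tested genes) and with mean log2 level at r = -0.68 (0.01). Between CoJAX and JAX the values were 0.49 (0.23) and -0.72 (-0.04). Between CoTAC and TAC they were 0.53 (0.32) and -0.84 (-0.21). Genes share the libraries in these correlations and are not independent points. The 9 factors with transcripts under 2000 nucleotides had a median difference between CoJAX and JAX of -0.33, the 15 of 2000 to 3000 nucleotides 0.24 and the 13 over 3000 nucleotides 0.29. C8g is among the shortest, at 1150 nucleotides, and Hc, Masp1, C4b, C3 and F5 are, with Klkb1, the longest, at 5445, 5345, 5379, 5136 and 7430 nucleotides. F13b at 2379, C9 at 2048, F9 at 2734 and C6 at 2876 nucleotides were called higher without being long. The part of depth, length and level in the calls was not tested beyond the values given here.

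**Figure D4:**
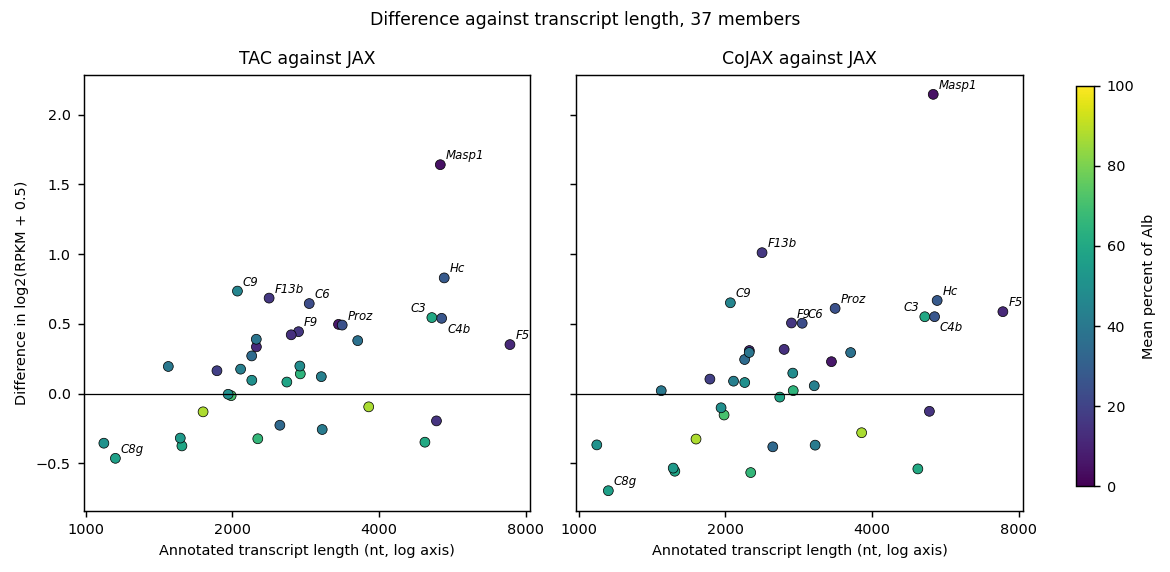
Difference in log2(RPKM + 0.5) of each of the 37 factors between TAC and JAX (left) and between CoJAX and JAX livers (right) against annotated transcript length on a log axis, coloured by mean level as a percentage of Alb. Long and low factors such as Masp1 lie high, short and abundant ones such as C8g lie low, and C9, F13b, C6 and F9 lie above 0 at middle lengths.

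Libraries of like depth allow a narrower comparison. TAC 1, with a relative depth of 0.7943, is close to the JAX libraries at 1, 0.7985 and 0.7581. In it 27 of the 37 factors lay above every JAX library, against 29.6% of all tested genes, and 1 lay below, Klkb1, against 26.3%. The median difference was 0.27, against 0.01 for all tested genes. The difference of TAC 1 from the JAX mean was 0.76 for C6, 0.68 for C9, 0.62 for Hc, 0.51 for Masp1, 0.41 for C3, 0.38 for F9 and 0.28 for F13b, factors whose sign here was fixed by TAC and JAX values that do not overlap. This rests on 1 TAC library, so it has no spread and no test. With relative depth as a covariate in the fit of all 12 libraries, 6 factors were called higher between TAC and JAX, against 0.572% of all tested genes. These were C6 at 0.81 ± 0.10 (adjusted p = 0.00889), C8b at 0.55 ± 0.08 (adjusted p = 0.0183), C9 at 0.85 ± 0.13 (adjusted p = 0.0241), Hc at 0.86 ± 0.16 (adjusted p = 0.0408), F9 at 0.47 ± 0.09 (adjusted p = 0.0434) and Serpind1 at 0.40 ± 0.08 (adjusted p = 0.0456). F13b stood at 0.63 ± 0.18 (adjusted p = 0.0976) in that fit. In the deep libraries, 6 factors lay above TAC 3 in all 3 CoTAC libraries and 3 lay below (25.4% and 26.3% of all tested genes), and 13 lay above CoJAX 3 and 2 below (29.3% and 26.7%). At middle depth 23 factors were above CoJAX 1 and CoJAX 2 in TAC 2 and 4 below (33.4% and 33.2%). Between the deep libraries TAC 3 and CoJAX 3, 33 factors were higher in TAC 3 and 4 lower (51.7% and 48.0%). No JAX library was as deep as a CoJAX library. The nearest pair, JAX 1 at a relative depth of 1 and CoJAX 1 at 1.0882, was not set side by side here.

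Ratios between subunits within a library were steadier than the levels for some pairs and not for others. The ratio of C8b to C8a was 0.930 to 1.16 over the 12 libraries, and that of Fgg to Fgb 0.986 to 1.04. The ratio of C8g to C8a was 2.60, 2.82 and 2.87 in JAX, 2.21, 1.42 and 1.16 in TAC, 1.53, 1.34 and 1.32 in CoJAX and 1.03, 1.23 and 1.03 in CoTAC livers. Its 4 highest values were those of the shallowest 4 libraries, and TAC 1 lay nearest to the JAX libraries. The ratio of Fga to Fgb was 0.551 to 0.609 in JAX and 0.630 to 0.740 in the other libraries, so the JAX libraries did not overlap the rest. Outside JAX it was lowest in the shallow TAC 1 and highest in CoJAX 3, the deepest library. It rose with depth within TAC, at 0.630, 0.671 and 0.696, but did not follow depth within CoJAX or CoTAC. The part of depth in this ratio was not tested.

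**Figure D5:**
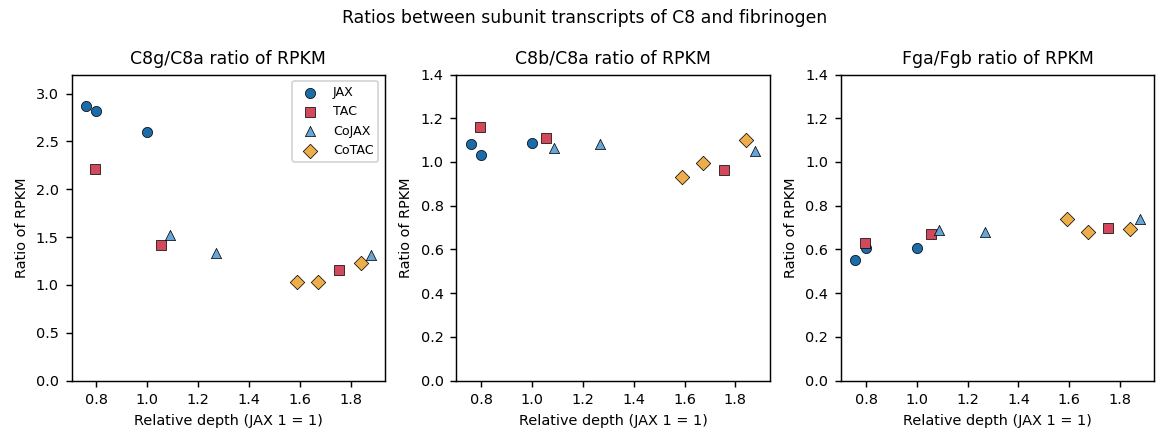
Ratio of RPKM of C8g to C8a, C8b to C8a and Fga to Fgb in each of the 12 libraries against relative depth (JAX 1 = 1), with a symbol for each group. C8g to C8a runs from 2.87 in the shallowest library to 1.03 among the deepest, while C8b to C8a stays between 0.930 and 1.16.

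Multiplied by the relative depth of its library, the level of several factors became nearly constant. The coefficient of variation of C8g over the 12 libraries was 6.3% on that product, that of Serpinc1 7.8%, of Kng1 8.9% and of Proc 9.2%, next to 3.92% for Alb. On RPKM as deposited they were 32.4%, 27.2%, 26.5% and 27.5%. Most of the factors became more uneven on the product. Among these were Hc, F13b and Masp1, at 48.0%, 47.1% and 75.8%. F9, C3 and F7 went from 15.8%, 20.8% and 8.9% as deposited to 41.3%, 37.9% and 31.9%.

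Other genes of the same systems gave few calls. Of 30 further complement genes 23 were tested, with a median difference of -0.08 between TAC and JAX and 0 calls (3 at an unadjusted p under 0.05). Cd59a, which encodes a membrane inhibitor of pore assembly, was lower in CoJAX than in JAX livers, at -0.39 ± 0.12 (adjusted p = 0.0367). Of 28 further coagulation genes 21 were tested. F2r, a thrombin receptor gene, was the 1 call between TAC and JAX, at 0.91 ± 0.18 (adjusted p = 0.028), and was called in CoJAX livers at 0.58 ± 0.18 (adjusted p = 0.0344) beside Pzp, a protease inhibitor gene, at 0.72 ± 0.18 (adjusted p = 0.017), and the lower Adamts13, whose product cuts von Willebrand factor, at -0.79 ± 0.26 (adjusted p = 0.0469). F3, the tissue factor gene that starts clotting, was called higher in CoTAC than in TAC livers, at 1.48 ± 0.28 (adjusted p = 0.0378), with 5.95, 6.91 and 4.17 RPKM against 1.74, 1.31 and 2.05. Between CoTAC and CoJAX 0 genes of either list passed in limma-trend, with 4 complement and 3 coagulation genes at an unadjusted p under 0.05. Of the complement genes 0 passed between CoTAC and TAC (2 at an unadjusted p under 0.05). Fcnb, a ficolin gene, was listed at 0 in every library.

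Markers of other cell types that liver tissue holds were measured beside the factors. The 8 Kupffer cell markers summed to 151.5 to 342.7 RPKM for JAX, 220.4 to 286.3 for TAC, 166.1 to 217.8 for CoJAX and 171.4 to 234.9 for CoTAC libraries. The 8 endothelial markers summed to 185.3 to 248.3 for JAX, 146.8 to 177.7 for TAC, 148.3 to 204.1 for CoJAX and 64.86 to 152.7 for CoTAC libraries. The 8 stellate cell markers summed to 143.7 to 162.8, 79.78 to 143.4, 94.3 to 147.7 and 64.28 to 100 RPKM in the same order. The 6 leukocyte markers summed to 60.81 to 113.8 for JAX, 37.66 to 103.9 for TAC, 43.54 to 50.29 for CoJAX and 37.41 to 69.23 for CoTAC libraries, and 1 of 5 tested was lower in TAC and 1 in CoJAX than in JAX livers. Of the other lists, 5 platelet markers summed to 4.562 to 12.88 RPKM, 4 cholangiocyte markers to 6.119 to 13.42 and 4 erythroid markers to 129.5 to 194.3 over all libraries. No marker of these lists was at 0 in every library. Of the stellate cell markers Col3a1, a collagen gene, was lower in CoJAX livers, at -0.76 ± 0.18 (adjusted p = 0.0138), and of the hepatocyte markers Cps1, a urea cycle gene, was higher in TAC livers, at 0.69 ± 0.16 (adjusted p = 0.0367). Cps1 and Apob were higher and Ttr lower in CoJAX than in JAX livers. Endothelial sums were higher in every JAX library than in every TAC library, and the part of these cells in the calls was not tested.

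Acute phase genes, which the liver raises in inflammation together with some of the factors here, gave no calls against JAX livers but set some libraries apart. Of 15 tested, 0 passed in limma-trend between TAC and JAX and 0 between CoJAX and JAX, with 6 and 4 at an unadjusted p under 0.05. Their median difference was 0.28 between TAC and JAX and -0.34 between CoJAX and JAX. Lcn2, which encodes lipocalin 2, stood at 21.5, 13.4 and 27.4 RPKM in JAX, 62.1, 227 and 100.3 in TAC, 17.1, 27.0 and 18.3 in CoJAX and 520.1, 19.0 and 537 in CoTAC livers, and Orm2, an orosomucoid gene, at 79.0, 82.7 and 60.2 RPKM in JAX, 324, 469 and 129 in TAC, 75.6, 51.4 and 49.4 in CoJAX and 339, 43.0 and 417 in CoTAC livers. Lcn2, Orm2 and Saa2 lay above every JAX library in every TAC library, and Lcn2, Orm2, Saa3 and Lbp were higher in CoTAC 1 and CoTAC 3 than in CoTAC 2. C3, C4b and Hc were likewise higher in CoTAC 1 and CoTAC 3 than in CoTAC 2, and were highest among the TAC libraries in TAC 2, as was Lcn2. Many other factors, such as F9, Proz, Plg and C9, had the same order. The acute phase genes Saa1, Saa2, Saa3, Orm1 and Hp were instead highest among the TAC libraries in TAC 1. The part of the acute phase genes in the calls was not tested. Socs3, an inhibitor of cytokine signalling, was higher in CoTAC than in TAC livers, at 1.83 ± 0.34 (adjusted p = 0.0378).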

How the data were processed

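Per the labels' protocols, total RNA of mouse liver was extracted with Trizol, poly(A) RNA was selected, and ThruPLEX was the library kit. RPKM values per gene and library were deposited as a single table. The submitters' processing notes name Bowtie 1.0.0, Cuffdiff 2.1.1 and mm9. Annotation and strand are not stated there. Without strand, overlapping genes cannot be told apart.

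Of 23936 lines, 27 carried a date number in place of a symbol and were left out. Relative depth was read from steps between values below 0.6 RPKM, matched within 0.1%. One limma-trend model (limma 3.58.1, R 4.3.3) on log2(RPKM + 0.5) covered the 4 groups, two-sided, with Benjamini-Hochberg adjustment over 12058 genes and a threshold of 0.05. The added 0.5 understates changes of low genes. The model was tested on simulated data. An exact permutation test of 3 libraries against 3 cannot go below 0.1. Labels do not say that libraries are separate animals, and cages are not given, so p-values rest on a spread between samples that may be technical. Alternatives changed the added constant, the filter, the scaling (quantile, median-ratio, Alb), the libraries fitted, a replicate block and a depth covariate. Lengths were those of the longest transcript of each gene in GENCODE vM21, which may differ from the lengths behind the deposited RPKM. Promoters came from RefSeq (GRCm38.p6). The members and lists were chosen with earlier results of these data known. Factors past the threshold in any comparison are described by library, or the 3 with the smallest p where fewer than 3 passed. Other pathway genes are named where they passed, up to 4 per comparison. Some results that this rule admits are not reported here.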

Additional observations from a re-analysis of the deposited data

How the results depend on the processing

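The number of factors called between TAC and JAX livers was 5, with 4.09% of all tested genes called. It became 22 (6.72%) after quantile normalization and 0 (0.108%) when only the groups compared were fitted. It was 8 (3.89%) with the trend over length and level removed, an alternative chosen after seeing the data. Leaving out 1 library at a time gave 0 to 13, with 0.0912% to 17.5% of all tested genes called. Between CoJAX and JAX the 11 calls became 25 after quantile normalization, 25 with Alb scaling, 2 with depth as a covariate (39 calls over all tested genes against 2911, with C9 at 0.84, C3 at 0.76, Hc at 0.72 and F9 at 0.55) and 23 with the length and level trend removed, and 4 to 16 with 1 library left out. Between CoTAC and TAC the range was 0 to 7 (0.0166% to 12.7%) and for the interaction 0 to 1, the 1 being F13b without TAC 1 (0.381%). It was 0 throughout between CoTAC and CoJAX. Other added constants, no filter and median-ratio scaling left the counts of calls against JAX at 4 to 6 and 9 to 11. The shares of all tested genes were 1.97% to 4.21% and 15.1% to 24.2%.

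Replicate numbers were not treated as pairs. The correlations of same-numbered deviations ran from -0.17 to 0.15. They were not set against those of differently numbered libraries, so they cannot show whether samples were paired. With the replicate block, 0 factors passed between TAC and JAX (15 at an unadjusted p under 0.05), where 0.522% of all tested genes were called. Between CoJAX and JAX 8 factors passed, and 19.1% of all tested genes.

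With Alb scaling the differences of Proc and C8g between CoTAC and TAC became 0.0637 and 0.0184, and that of Klkb1 between CoTAC and CoJAX 0.0364, all of the opposite sign. The medians of all tested genes on that scale were 0.51 between CoTAC and TAC and 0.30 between CoTAC and CoJAX. The causes were not tested. Of 547 recomputed differences of named factors, 447 kept direction and side of the threshold, 94 lost the call, 3 gained it and 3 changed sign. The named factors of the other comparisons and the interaction had no call to lose, so all 94 losses fell on calls against JAX livers. All 5 calls between TAC and JAX were lost with only the groups compared, with the replicate block and without JAX 1, JAX 2, JAX 3 or TAC 2. Depth, at most 3630000 estimated reads, limits low factors such as Masp1 most.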
